A study of Danio rerio with 8 samples.

Results

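Peroxisomal fatty acid oxidation genes were described in the liver of zebrafish (Danio rerio) at 3 temperatures. The members were abcd3a, acox3, ehhadh, hsd17b4, acaa1 and scp2a, taken as every probe that the platform annotation assigns to one of these symbols. They came to 8 probes for 6 genes, out of 43603 probes on the array and 15548 measured gene symbols. Two-colour microarrays compare a red (Cy5) and a green (Cy3) labelled RNA on one slide and yield their ratio, and 8 such arrays linked 7 liver RNA samples in a loop. On day 28 there were 2 biological replicates each from 18 °C, 26 °C and 34 °C, and day 4 gave 1 sample from 26 °C. The series was made to select temperature probes for a custom array, and no treatment other than temperature and day is labelled. The sources used here do not give the strain, sex or age of the fish, the number of fish in a sample, or what the days count from.

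Peroxisomes shorten fatty acids that mitochondria handle poorly, such as very long chain, branched and dicarboxylic acids, and the side chains of bile acid precursors. Activated acids enter through ABC transporters of the D family and then pass through an oxidase that makes hydrogen peroxide, a bifunctional hydratase and dehydrogenase, and a thiolase that releases acetyl or propionyl units. The liver is rich in peroxisomes, and in rodents the nuclear receptor PPAR-alpha switches on many genes of this pathway.

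Each ratio was taken to be Cy5 over Cy3. This is likely from limma's own definition and from the order of names in the array titles, but no source used here states it. Were it the other way round, all signs given here would turn and the sizes, counts and p-values would not. A level below is the log2 level of a gene in 1 RNA sample relative to its mean over all 7 samples, taken from the array ratios by least squares. A difference is the log2 difference of 2 group means, given with limma's moderated standard error and a p-value adjusted by Benjamini-Hochberg over 35434 features. A difference was called where that p was below 0.05. Ratios carry no absolute level, so whether a gene or a marker was absent from the liver RNA could not be read, and levels of different genes were not compared. These were whole-tissue RNA samples, in which fewer cells of a type and less RNA per cell cannot be told apart.

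Between 18 °C and 34 °C on day 28, the transporter abcd3a, the bifunctional enzyme ehhadh and the thiolase acaa1 rose, by 8.27-fold, 2.92-fold and 3.50-fold. These 3 of 6 members passed the test, where 0.982% of all features did and 0.485% did in the same direction as these members, whichever way the ratios run. The members were chosen with earlier results of these data known, so this comparison is a description. The thiolase scp2a and the bifunctional enzyme hsd17b4 had differences of like size, 2.099 and 1.73 on the log2 scale, and did not pass. The oxidase acox3 had a difference of 0.39. The median of the 6 differences was 1.77. That of all features was 0.00086, but the medians of the arrays themselves lay near 0 (-0.00072 to 0.0039), so this contrast says little. The hepatocyte markers described below had a median of 1.37.

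**Figure D1:**
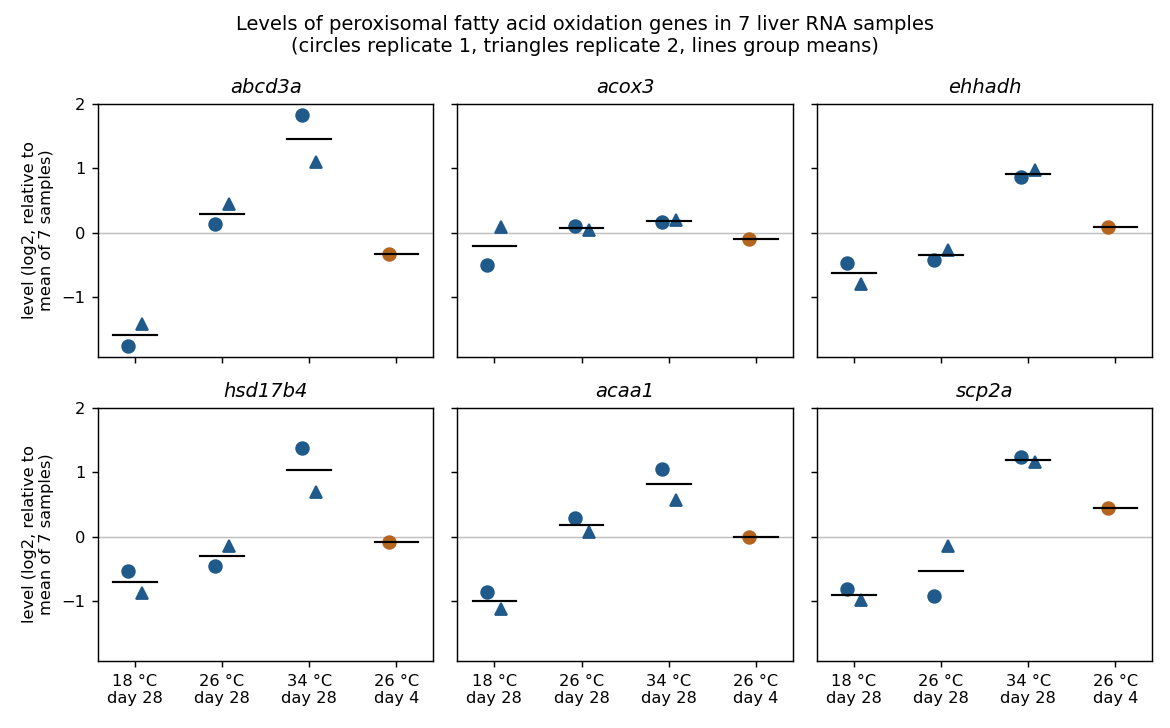
Level of each of the 6 genes (log2, relative to the mean of 7 samples) in every liver RNA sample, by temperature and day. Circles are replicate 1, triangles replicate 2, orange the single day 4 sample, and lines group means. Both 34 °C samples lie above both 18 °C and both 26 °C samples for all 6 genes, by little for acox3. For acox3 and acaa1 this holds for the mean over probes, not for every probe.

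The peroxisomal half-transporter abcd3a (probe A_15_P119646) is a zebrafish counterpart of a mammalian protein that brings branched, dicarboxylic and bile acid precursor CoA esters into the organelle. Its levels were -1.75 and -1.42 in the 18 °C replicates, 0.14 and 0.45 at 26 °C, 1.83 and 1.09 at 34 °C, and -0.33 on day 4. The 3 temperature groups of day 28 followed the order of temperature without overlap. Of all features, 18.6% had no overlap in this direction between 26 °C and 34 °C, and 13.5% between 18 °C and 26 °C. The share with the full order was not counted. The day 4 sample of abcd3a lay below both 26 °C samples of day 28. On the array that joined 34 °C replicate 1 directly to 18 °C replicate 1 the log2 ratio was 3.30. The difference of 34 °C from 18 °C was 3.05 ± 0.28 (SE, n = 2 against 2; limma adjusted p = 0.0408), with a 95% interval from 2.298 to 3.80. By this difference abcd3a ranked 18 among the 35434 features, counted from the largest difference in its own direction, a rank that stays if all signs turn. The similarly named gene abcd3b, measured by 1 probe, had a difference of -0.05 ± 0.10 (limma adjusted p = 0.938).

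Acyl-CoA oxidase 3, encoded by acox3, oxidises branched acyl-CoA in mammals and passes the electrons to oxygen. Its levels were -0.50 and 0.09 at 18 °C, 0.10 and 0.04 at 26 °C, 0.17 and 0.19 at 34 °C, and -0.10 on day 4. One 18 °C replicate stood low and the other lay among the 26 °C samples. The difference of 34 °C from 18 °C was 0.39 ± 0.20 (limma adjusted p = 0.561), with a 95% interval from -0.14 to 0.92. This interval lies below those of the differences of abcd3a, ehhadh and acaa1 that passed.

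The acox3 value is a mean over probes that did not run together. Probe A_15_P108531 gave 0.73 ± 0.30 for 34 °C against 18 °C and probe A_15_P155181 gave 0.05 ± 0.12, with limma adjusted p-values of 0.412 and 0.941 in the fit of single probes. Over the 8 arrays their ratios correlated at r = 0.23. The first probe put 18 °C replicate 1 at -0.90 and the second put it at -0.11, so the low value of that sample came mostly from one probe.

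The next step of the cycle adds water and oxidises the product, and both bifunctional enzymes were measured. The gene ehhadh (probe A_15_P114037) encodes the L-bifunctional enzyme, which in mammals takes part in the breakdown of dicarboxylic acids. Its levels were -0.47 and -0.79 at 18 °C, -0.43 and -0.26 at 26 °C, 0.86 and 0.98 at 34 °C, and 0.10 on day 4. The 18 °C and 26 °C samples lay close together, and both 34 °C samples stood well above them. The difference of 34 °C from 18 °C was 1.55 ± 0.13 (n = 2 against 2; limma adjusted p = 0.0387), with a 95% interval from 1.21 to 1.89.

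The D-bifunctional enzyme encoded by hsd17b4 (probe A_15_P152686) handles very long chain and branched acids and bile acid precursors in mammals. Its levels were -0.53 and -0.87 at 18 °C, -0.45 and -0.14 at 26 °C, 1.37 and 0.69 at 34 °C, and -0.08 on day 4. Both 34 °C samples were higher than every other sample, but they differed from each other by 0.68. The difference of 34 °C from 18 °C was 1.73 ± 0.27 and did not pass (limma adjusted p = 0.0750).

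Thiolases close the cycle. The peroxisomal 3-ketoacyl-CoA thiolase acaa1, which acts on straight chains, had levels of -0.86 and -1.12 at 18 °C, 0.29 and 0.07 at 26 °C, 1.06 and 0.58 at 34 °C, and -0.01 on day 4. In the mean over probes the groups of day 28 followed the order of temperature without overlap. The share of all features with this full order was not counted. The difference of 34 °C from 18 °C was 1.81 ± 0.20 (n = 2 against 2; limma adjusted p = 0.0471), with a 95% interval from 1.29 to 2.33.

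The acaa1 probes had the same sign and unequal size. Probe A_15_P111509 gave 2.31 ± 0.18 for 34 °C against 18 °C (limma adjusted p = 0.0447 in the fit of single probes). Probe A_15_P195106 gave 1.303 ± 0.24 (limma adjusted p = 0.114). By this probe alone the groups overlapped, with 34 °C replicate 2 at 0.32 below 26 °C replicate 1 at 0.56. Its difference of 34 °C from 26 °C was 0.24 ± 0.24, against 1.04 ± 0.18 for probe A_15_P111509. Over the 8 arrays the acaa1 probes correlated at r = 0.89. They differed most on the array of 18 °C replicate 1 over the day 4 sample, with log2 ratios of -1.78 and -0.26.

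The gene scp2a (probe A_15_P119169) is a counterpart of a mammalian gene that makes both a thiolase for branched chains and sterol carrier protein 2. Its levels were -0.81 and -0.99 at 18 °C, -0.92 and -0.14 at 26 °C, 1.24 and 1.16 at 34 °C, and 0.45 on day 4. The 34 °C replicates were nearly equal, whereas the 26 °C replicates lay 0.79 apart and one of them lay between the 18 °C samples. The difference of 34 °C from 18 °C was 2.099 ± 0.27 and missed the threshold (limma adjusted p = 0.0562). The similarly named gene scp2b, measured by 2 probes, had a difference of 0.04 ± 0.07 (limma adjusted p = 0.934).

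On the arrays themselves, 4 join a 34 °C sample to one of 18 °C or 26 °C with both samples from day 28. Arrays that hold the day 4 sample are not counted here. All members except acox3 were higher at 34 °C on all 4 of these, as were 12.5% of all features. The size varied with the array. For abcd3a the log2 excess of 34 °C was 3.30 over 18 °C replicate 1 and 0.37 for replicate 2 over 26 °C replicate 2. The arrays of 26 °C over 34 °C replicate 1 gave abcd3a ratios of -1.72 with 26 °C replicate 1 and -1.83 with 26 °C replicate 2. The scp2a ratio of 34 °C replicate 2 over 26 °C replicate 2 was 1.51. Of the 3 arrays that join 18 °C to 26 °C or 34 °C on day 28, all showed lower 18 °C ratios for abcd3a, ehhadh, hsd17b4 and acaa1, as for 18.2% of all features. For scp2a, 18 °C replicate 2 over 26 °C replicate 1 was slightly positive at 0.14.

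Both 34 °C levels exceeded both 18 °C levels in 6 of 6 members, where 18.3% of all features did the same. For acox3 this held in the mean over probes and in probe A_15_P108531, not in probe A_15_P155181. Probe A_15_P155181 put 18 °C replicate 2 at 0.21 and the 34 °C samples at 0.11 and 0.09. A difference of at least 1 on the log2 scale between group means was seen in 5 members, all but acox3, against 2.51% of all features. Depending on the array, 43.2% to 82.8% of all probes had an absolute log2 ratio below 0.1, and the shares over all features include such probes. Large positive differences were not particular to the members. The 18 measured hepatocyte markers described below ran from 0.72 to 2.83, with a median of 1.37.

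The 3 calls depended on the samples and arrays that entered the fit. Leaving out an 18 °C or 34 °C sample sets 1 sample against 2, the lone sample is assumed to vary like the others, and the spread then comes from the pairs left. The difference of abcd3a ran from 2.68 to 3.42 when each day 28 sample was left out in turn, that of ehhadh from 1.39 to 1.71 and that of acaa1 from 1.57 to 2.05. Without 18 °C replicate 1 the limma adjusted p-values were 0.118 for abcd3a, 0.0687 for ehhadh and 0.118 for acaa1. Without 18 °C replicate 2 they were 0.118, 0.0839 and 0.147 in the same order. Leaving out either 26 °C replicate gave 0.0892, 0.0809 and 0.0973. Without 34 °C replicate 1 they were 0.0904, 0.108 and 0.105, and without 34 °C replicate 2 they were 0.0497, 0.0751 and 0.0565. So abcd3a without 34 °C replicate 2 was the only one of these 18 cases that stayed called, while the sign held in all of them. With the arrays scaled to equal spread no feature was called, against 4479 at an unadjusted p below 0.05, and the limma adjusted p-values were 0.185 for abcd3a, 0.267 for ehhadh and 0.306 for acaa1. The differences themselves were larger there, at 3.62 ± 0.62, 1.72 ± 0.43 and 2.33 ± 0.67, and so were their standard errors.

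**Figure D2:**
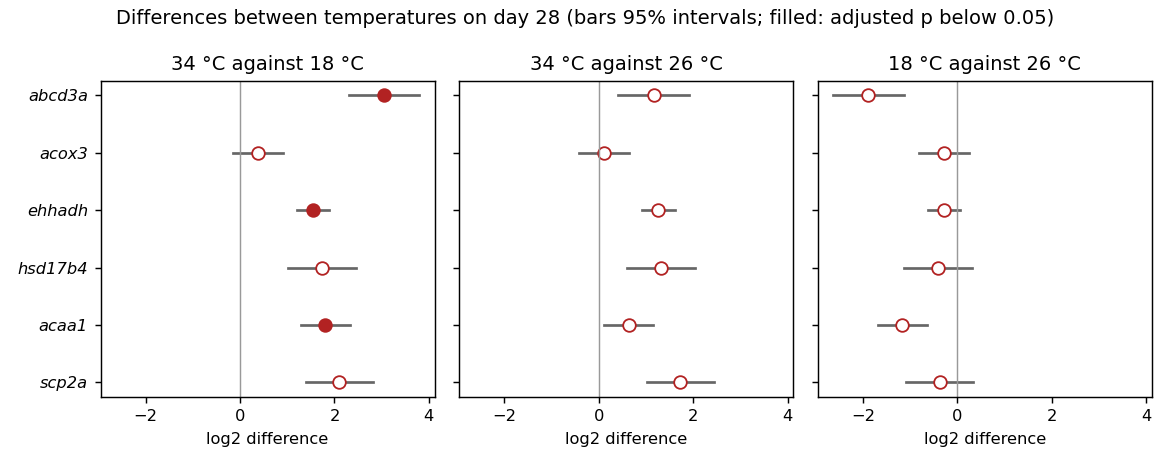
Differences between temperature groups on day 28 (log2) for the 6 genes, in panels for 34 °C minus 18 °C, 34 °C minus 26 °C and 18 °C minus 26 °C. Bars are 95% intervals and filled points passed at an adjusted p below 0.05, which abcd3a, ehhadh and acaa1 did at 34 °C against 18 °C.

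The comparison of 34 °C with 26 °C covers the upper step of the temperature range. Every member was higher at 34 °C, with a median difference of 1.22, and none passed, as for all features (0% called). Unadjusted p-values below 0.05 were found for 5 members, all but acox3, and for 3114 features. The differences were 1.73 ± 0.27 for scp2a (limma adjusted p = 0.243), 1.32 ± 0.27 for hsd17b4 (0.290) and 1.27 ± 0.13 for ehhadh (0.175). Smaller ones were found for abcd3a (1.17 ± 0.28, limma adjusted p = 0.344), acaa1 (0.64 ± 0.20, 0.439) and acox3 (0.11 ± 0.20, 0.957). Both 34 °C samples lay above both 26 °C samples in 6 of 6 members, against 18.6% of all features. For acaa1 this held in the mean over probes, not in probe A_15_P195106 alone. Taken as a fold, the excess of scp2a at 34 °C was 3.32 and that of ehhadh 2.40. With 1 sample or array left out, abcd3a ran from 0.80 without 34 °C replicate 1 to 2.25 without the array of 34 °C replicate 2 over 26 °C replicate 2. The same left-out sample and array set the range of hsd17b4, 0.98 to 2.19, and of acaa1, 0.40 to 1.25. Without that array acox3 stood at 0.93.

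The comparison of 18 °C with 26 °C covers the lower step and shares its 26 °C samples with the upper one. All 6 members were lower at 18 °C, with a median difference of -0.39, and none passed, where 0.00282% of all features did. Unadjusted p-values below 0.05 were found for 2 members, abcd3a and acaa1, and for 1570 features. The single feature called was itgb1b.2, an integrin gene (-1.39 ± 0.04, limma adjusted p = 0.0453). The lower step was large for the transporter abcd3a, -1.88 ± 0.28 (limma adjusted p = 0.427), and for the thiolase acaa1, -1.17 ± 0.20 (limma adjusted p = 0.476). It was -0.41 for hsd17b4, -0.37 for scp2a and -0.28 for both ehhadh and acox3. Both 26 °C samples exceeded both 18 °C samples in 4 members, all but acox3 and scp2a, against 13.5% of all features. Without 26 °C replicate 2 the value of scp2a was 0.03, and without 18 °C replicate 1 that of acox3 was 0.02. With the hepatocyte marker median of each sample subtracted, a value without a test, 4 members turned positive, acox3 and ehhadh at 0.42, scp2a at 0.33 and hsd17b4 at 0.29.

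By size alone the members took different shapes over the range. The values of abcd3a, acaa1 and acox3 were larger for the lower than for the upper step, and those of ehhadh, hsd17b4 and scp2a were larger for the upper step. The test of this difference, the upper minus the lower step, gave 0.98 ± 0.22 for ehhadh, 1.36 ± 0.47 for scp2a and 0.91 ± 0.47 for hsd17b4. It gave -0.72 ± 0.49 for abcd3a, -0.53 ± 0.34 for acaa1 and -0.17 ± 0.35 for acox3. The acox3 probes had opposite signs, -0.57 for A_15_P108531 and 0.24 for A_15_P155181. With 1 sample or array left out, abcd3a (-1.61 to 0.80), acaa1 (-1.04 to 0.33) and acox3 (-0.84 to 0.97) took both signs. Without 26 °C replicate 1 the value of scp2a was 0.58 and without 26 °C replicate 2 it was 2.15. That of hsd17b4 was 0.20 without the array of 34 °C replicate 1 over 18 °C replicate 1, and 2.12 without that of 34 °C replicate 2 over 26 °C replicate 2. None was called, nor was any feature (0% called, 1046 at an unadjusted p below 0.05), all limma adjusted p-values of members were 1.00, and ehhadh and scp2a alone among them had an unadjusted p below 0.05. The shapes are therefore a description of these samples.

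**Figure D3:**
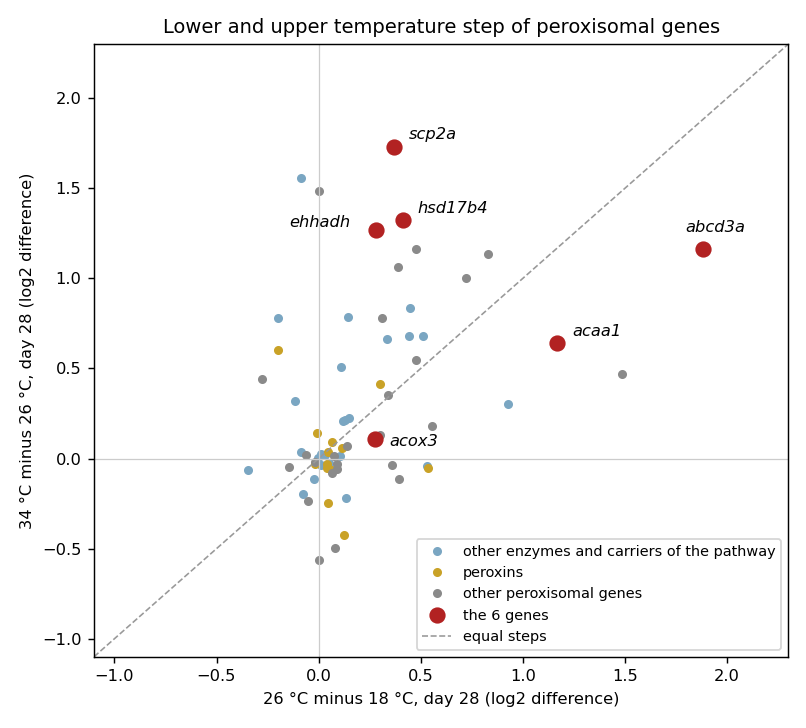
Lower step (26 °C minus 18 °C, horizontal) against upper step (34 °C minus 26 °C, vertical) on day 28, in log2 differences, for the 6 genes and for the other measured peroxisomal genes. The dashed line marks equal steps. Points for scp2a, hsd17b4 and ehhadh lie above it and those for abcd3a, acaa1 and acox3 below it, and most peroxins lie near 0 on both axes. Both axes share the 26 °C samples.

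Day 4 at 26 °C was a single sample, assumed in the test to vary like the others. Against day 28 it differed by 0.98 for scp2a, 0.44 for ehhadh and 0.21 for hsd17b4. The values were -0.63 for abcd3a, -0.19 for acaa1 and -0.17 for acox3. None was called (limma adjusted p from 0.645 to 0.819, 0% of all features called, 2384 at an unadjusted p below 0.05). The same 2 members, ehhadh and scp2a, were below 0.05 before adjustment.

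Across the 8 arrays the log2 ratios of the members correlated pairwise between r = 0.71 and r = 0.98. The arrays share samples, so these correlations are a description. The highest was that of abcd3a with acaa1, 0.98, and ehhadh, hsd17b4 and scp2a correlated with each other at 0.96. All pairs that included acox3 lay between 0.71 and 0.79. Over the 7 sample levels the acox3 pairs were lower, between r = 0.43 and r = 0.72, and the other pairs lay between 0.79 and 0.97. Searched over 14128 other gene symbols, the closest patterns over the 8 arrays were those of rab1aa (r = 0.996), dhrs1 (0.987) and ndel1a (0.986) for abcd3a. For acaa1 they were cldn15lb (0.996), hmgb1a (0.993) and nr5a2 (0.992), and for ehhadh the desaturase gene fads2 (0.990), rpl15 (0.989) and serpinf2b (0.988). Those of hsd17b4 were irf2bp2b (0.990), klhl24b (0.990) and f10 (0.985). For scp2a they were tcf25 (0.983), rpl10a (0.979) and tmed8 (0.977), and for acox3 tnfrsf9a (0.985), hyal2a (0.971) and pou2f1b (0.970).

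Other enzymes and carriers of the same pathway had mostly positive differences of unequal size. Of 29 listed genes 25 were measured, and 19 were higher at 34 °C than at 18 °C. Their median difference was 0.33, and the values ran from -0.41 to 1.47. The one gene that passed was phyhd1, a dioxygenase related to the enzyme that starts phytanic acid breakdown in mammals. Its levels were -0.23 and -0.44 at 18 °C, -0.11 and -0.27 at 26 °C, and 0.67 and 0.52 at 34 °C, so the 34 °C samples stood apart. It rose by 0.93 ± 0.11 (limma adjusted p = 0.0494). Values that did not pass were 1.47 ± 0.26 for acbd5a, a peroxisomal membrane protein that binds acyl-CoA (limma adjusted p = 0.0934), 1.29 ± 0.33 for ech1, an auxiliary enzyme for unsaturated chains (0.181), and 1.23 ± 0.21 for the peroxisomal 2,4-dienoyl-CoA reductase gene decr2 (0.0879). No gene of the list passed at 34 °C against 26 °C (median 0.21, 18 of 25 positive) or at 18 °C against 26 °C (median -0.10, 17 of 25 negative).

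The peroxins, which build the organelle and import its proteins, had differences near 0. Of 18 listed genes 13 were measured, 8 were positive at 34 °C against 18 °C and none passed, with a median of 0.08. The largest values were 0.71 ± 0.63 for the import receptor gene pex5, whose 18 °C replicates lay at 0.45 and -1.42, 0.48 ± 0.15 for pex19 and 0.41 ± 0.14 for pex3, which act in membrane protein insertion.

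Of 30 other peroxisomal enzymes and membrane proteins 25 were measured, 18 were positive, none passed, and the median was 0.28. The urate oxidase gene uox had a difference of 1.96 ± 0.38 (limma adjusted p = 0.103) and the hydroxyacid oxidase gene hao1 1.96 ± 0.58 (limma adjusted p = 0.231). Catalase, which breaks down the hydrogen peroxide made by the oxidases, had 1.72 ± 0.85 for cat (limma adjusted p = 0.529). Its 34 °C replicates did not match each other, at 2.0996 and -0.19, and the second lay above both 18 °C samples, at -0.26 and -1.28, but below one 26 °C sample, at 0.26.

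Among transcription factors, 15 of 19 listed PPAR, RXR and partner genes were measured and 11 were positive at 34 °C against 18 °C, with a median of 0.06. Called were the retinoid X receptor gene rxrbb (0.81 ± 0.08, limma adjusted p = 0.0414) and nr1h3, the liver X receptor (0.66 ± 0.07, limma adjusted p = 0.0428). Both rose with the 34 °C samples apart from all others. The hepatocyte factor hnf4a had 1.18 ± 0.17 (limma adjusted p = 0.0682) and the bile acid receptor gene nr1h4 had 0.87 ± 0.21 (limma adjusted p = 0.165). The value of pparaa, a zebrafish PPAR-alpha gene with 1 probe, was -0.01 ± 0.06 (limma adjusted p = 0.983). Its levels ran only from -0.07 to 0.06 over the 7 samples. Without intensities, a probe that gave no signal could not be told from an unchanged gene. The listed gene pparab was not measured.

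Of 28 textbook PPAR-alpha targets outside the peroxisome 21 were measured, 17 were positive and none passed, with a median of 0.36. The largest values were those of angptl4, a secreted lipase inhibitor (1.71 ± 0.24, limma adjusted p = 0.0643), etfdh, which passes electrons from mitochondrial oxidation to ubiquinone (2.83-fold, 0.193), and the fatty acid translocase gene cd36 (1.19 ± 0.41, 0.304). For mitochondrial beta-oxidation 22 of 23 genes were measured, 18 were positive and none passed, with a median of 0.61. There the dehydrogenase gene hadh had 1.74 ± 0.54 and the hydratase gene echs1 had 1.71 ± 0.40 (limma adjusted p = 0.256 and 0.151). These lists overlap, since 12 genes, 11 of them measured, stand in both.

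**Figure D4:**
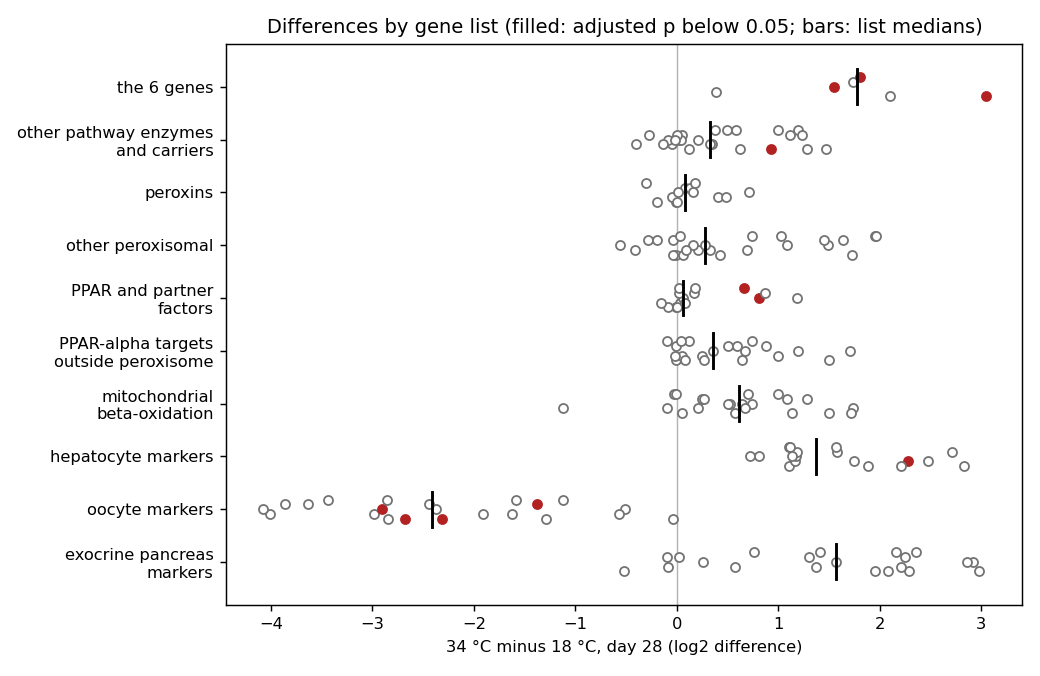
Differences of 34 °C against 18 °C on day 28 (log2) for single genes, in rows by gene list, with black bars at list medians and filled points for genes with an adjusted p below 0.05. The 6 genes have a median of 1.77, the peroxins one of 0.08, the hepatocyte markers one of 1.37 and the oocyte markers one of -2.41. Some genes appear in more than one row.

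Markers of liver cells and of other cell types differed between the same samples. All 18 measured hepatocyte markers of 23 listed were higher at 34 °C than at 18 °C, with a median of 1.37, and 1 was called, the transferrin gene tfa (2.28 ± 0.25, limma adjusted p = 0.0477). Sample medians of the hepatocyte markers were -0.56 and -1.02 at 18 °C, 0.11 and -0.29 at 26 °C, 1.08 and 0.29 at 34 °C, and 0.01 on day 4. The sample medians of the 6 members were -0.67 and -0.93 at 18 °C, -0.16 and -0.05 at 26 °C, 1.15 and 0.84 at 34 °C, and -0.04 on day 4. Both sets thus ordered the temperatures alike. They did not order the 26 °C replicates alike, since replicate 1 was higher for the markers and replicate 2 for the members. Between the 34 °C replicates the medians differed by 0.80 for the markers and by 0.31 for the members.

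The oocyte markers had negative differences. All 22 measured of 24 listed were lower at 34 °C than at 18 °C, with a median of -2.41, and 4 of them passed the test. These were the egg envelope genes zp3a.1 (-2.68 ± 0.28) and zp3c (-1.38 ± 0.15), nanog (-2.91 ± 0.33) and 42sp43 (-2.31 ± 0.26), with limma adjusted p-values from 0.0450 to 0.0490. Their sample medians were 0.81 and 1.67 at 18 °C, 0.03 and 0.14 at 26 °C, -1.22 and -0.76 at 34 °C, and -0.34 on day 4. Exocrine pancreas markers had a median difference of 1.56, with 18 of 21 measured positive and none called. Their sample medians were -1.42 and -0.33 at 18 °C and 0.80 and -1.18 at 26 °C. They were 0.90 and 0.16 at 34 °C and 0.93 on day 4. The medians of the 26 °C replicates differed by 1.98 for these markers, by 0.40 for the hepatocyte markers and by 0.11 for the members. The single members differed by more in part. In replicate 2 scp2a was higher by 0.79, hsd17b4 by 0.31, abcd3a by 0.30 and ehhadh by 0.16. In replicate 1 acaa1 was higher by 0.22 and acox3 by 0.06, which was also the direction of the pancreas marker median. Medians of the other lists were 0.03 for erythrocytes, 0.08 for leukocytes, 0.65 for enterocytes, 0.01 for adipocytes, of which cidec was called (1.15 ± 0.11, limma adjusted p = 0.0414), and 0.06 for bile duct and stellate cells.

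**Figure D5:**
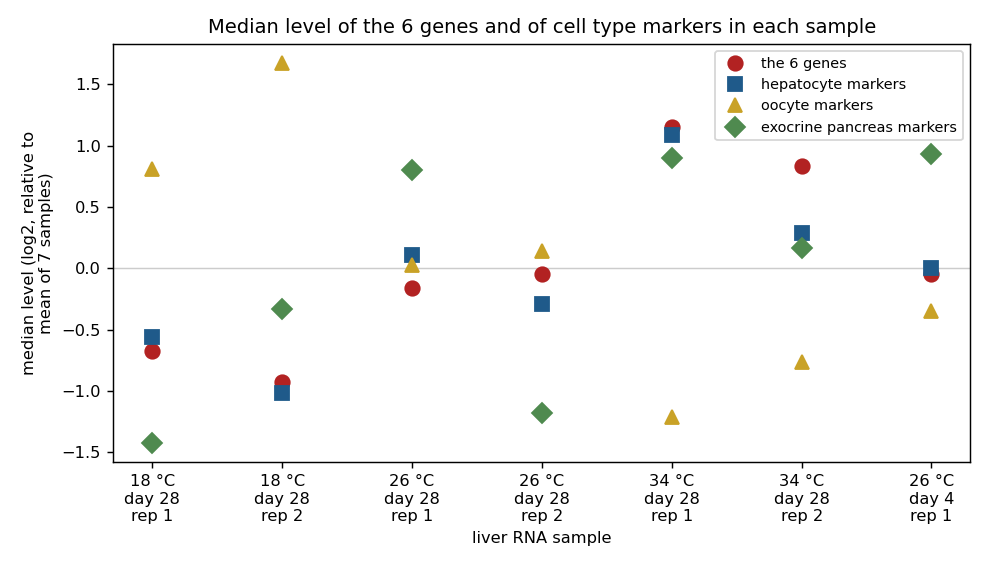
Median level (log2, relative to the mean of 7 samples) of the 6 genes and of hepatocyte, oocyte and exocrine pancreas markers in each of the 7 samples. The 6 genes and the hepatocyte markers are lowest at 18 °C and highest at 34 °C, the oocyte markers are highest at 18 °C and lowest at 34 °C, and the pancreas markers differ by 1.98 between the 26 °C replicates of day 28.

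Set against the single hepatocyte markers by value alone, abcd3a had a larger difference between 34 °C and 18 °C than 18 of 18. The largest marker difference was 2.83 ± 0.35, against 3.05 ± 0.28 for abcd3a. Larger differences than that of scp2a were found in 5 markers, than that of acaa1 in 6, hsd17b4 in 7 and ehhadh in 9. All 18 exceeded acox3, at 0.39 ± 0.20, and the smallest marker difference was 0.72 ± 0.37. With the hepatocyte median of each sample subtracted, an alternative chosen after the data were seen and given without a test, abcd3a kept a difference of 1.58. The others were then at 0.63 for scp2a, 0.33 for acaa1, 0.26 for hsd17b4 and 0.07 for ehhadh, and acox3 turned to -1.09. At 34 °C against 26 °C the remaining differences were 0.96 for scp2a, 0.55 for hsd17b4, 0.49 for ehhadh and 0.39 for abcd3a, while acaa1 stood at -0.14 and acox3 at -0.66. The part of the cell makeup of the samples in the members' differences was not tested.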

How the data were processed

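Liver RNA was measured on 8 arrays of a two-colour loop. The authors deposited 1 normalized log ratio per probe and array, for 43603 probes. Per the submitters' processing notes limma was used. Background correction and normalization are steps not given in the sources used here, as are spot filters. The deposited values were taken as log2, the scale of that tool. They reach from -8.96 to 8.03, and signals of 16 bits allow no log10 ratio above 4.82. Direction follows the dyes in the labels.

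Per the labels' protocols, Trizol was used for extraction and Agilent's protocol version 5.7 for labelling. Symbols came from the platform annotation, updated through RefSeq, and probes of a symbol were averaged. Step 1 fitted the ratios of each feature on the 7 samples and a dye term. Step 2 compared the groups on these sample levels with limma 3.58.1 (R 4.3.3; lmFit, eBayes), two-sided, with 1.63 prior and 3 residual degrees of freedom. P-values were adjusted by Benjamini-Hochberg over all features of a fit. These were 35434 in the main fit, 43603 in the fit of single probes and 35440 with the platform's own symbols. Sample levels share arrays, which step 2 ignores, and the number of arrays limits the precision. Without intensities, probes near background could not be set apart. The steps were tested on simulated data for the recovery of planted differences and sample levels. No limit was set there on calls among unchanged features.

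The members and the 14 gene lists (6 pathways, 8 cell types) were chosen with earlier results of these data known. Named by rule were all members, each pathway gene called in any comparison, the 3 of each pathway list with the largest difference at 34 °C against 18 °C, and the 3 symbols closest to each member. The called cell type markers, itgb1b.2, pparaa, abcd3b and scp2b were named after their values were seen. Alternatives were the probe summary, names, dye term, arrays as replicates, scaling, centring, samples fitted, a replicate block, left-out samples and arrays, turned signs and a robust prior. A subtraction of the hepatocyte median was added later. It was first fitted over all features and kept as values only after that output was seen.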

Additional observations from a re-analysis of the deposited data

How the results depend on the processing

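At 34 °C against 18 °C, 348 features were called by the fit on sample levels. This count was 226 for single probes, 2994 with arrays taken as replicates, 0 with arrays scaled to equal spread (4479 at an unadjusted p below 0.05) and 0 with the 18 °C and 34 °C samples alone (4312). Leaving out 1 sample or array gave 0 to 246. At 34 °C against 26 °C it was 0, with 1372 over arrays and 0 to 2 with 1 left out. At 18 °C against 26 °C it was 1, with 29 over arrays and 0 for single probes (1851 unadjusted), scaled arrays (2167), the replicate block (1940) and each left-out sample or array. The step difference gave 2 over arrays. Arrays that share a sample are not independent, and as replicates they also called hsd17b4 (adjusted p = 0.0136) and scp2a (0.00926) at 34 °C against 18 °C, and 5 members at 34 °C against 26 °C. The call of acaa1 was lost without the dye term (adjusted p = 0.0574) and with a robust prior (0.0576). With only the 18 °C and 34 °C samples the adjusted p-values were 0.0892 for abcd3a, 0.0809 for ehhadh and 0.0973 for acaa1. The causes of these changes were not tested.

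No label pairs the replicate numbers, and deviations of same-numbered samples correlated at -0.15, -0.13 and 0.41. With the replicate block 237 features were called at 34 °C against 18 °C. There acaa1 had an adjusted p of 0.0350, abcd3a of 0.0748 and ehhadh of 0.0668.

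Directions held at 34 °C against 18 °C and 34 °C against 26 °C for abcd3a, ehhadh, hsd17b4 and scp2a under every alternative run, and for acaa1 in the first of these. Turned signs were not run for members, since they turn all. Reversed values were those of acox3, at 0.094 (18 °C against 26 °C) and 0.24 (step difference) for probe A_15_P155181, and at 0.0937 (day 4) and 0.0785 (step difference) over arrays. Probe A_15_P111509 turned acaa1 to 0.39 on day 4. With the hepatocyte median subtracted, acox3 became -1.09 at 34 °C against 18 °C, -0.66 at 34 °C against 26 °C and 0.42 at 18 °C against 26 °C, and acaa1 became -0.14 at 34 °C against 26 °C. At 18 °C against 26 °C ehhadh then stood at 0.42, hsd17b4 at 0.29 and scp2a at 0.33.

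With 1 sample or array left out, acox3 ran from -0.0261 to 0.88 at 34 °C against 18 °C and from -0.86 to 0.0458 at 18 °C against 26 °C, where scp2a ran from -0.76 to 0.0251. On day 4 the ranges were -1.73 to 0.68 for abcd3a, -1.001 to 0.81 for acox3, -0.66 to 1.25 for hsd17b4 and -0.81 to 0.55 for acaa1. For the step difference they were -1.61 to 0.80 for abcd3a, -0.84 to 0.97 for acox3 and -1.04 to 0.33 for acaa1.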
